A study of Mus musculus with 32 samples.

Results

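Msi2, Rbpms, Qk, Rbfox2, Celf1, Celf2, Ptbp1, Ptbp2, Hnrnpk and Lin28a are 10 mouse genes that encode RNA-binding proteins, most of them regulators of splicing. What was measured here is not the proteins but the transcripts of these genes, that is, where the RNA of each gene was found next to chromatin. The genes were chosen by name, and an interaction was counted for a gene when its RNA tag carried that gene's Ensembl identifier. They are 10 of the 17784 transcripts listed in at least 1 library, and they gave 207365 of 25231081 listed interactions.

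The measurements come from RADICL-seq, in which RNA is ligated to nearby DNA inside fixed nuclei, so that each sequenced molecule carries a tag of each. The mouse lines compared were R08, a male embryonic stem cell line (mESC), and Oli-neu, a line of oligodendrocyte progenitor cells (mOPC), and replicates were batches of cells of different passage. Each of the 15 libraries belonged to 1 of 6 groups. mESC 1FA (3 libraries) and mOPC 1FA (3 libraries) were untreated cells fixed with 1% formaldehyde, mESC 2FA (3 libraries) was fixed with 2% formaldehyde, and mESC ActD (2 libraries) received actinomycin D, an inhibitor of transcription, at 5 µg/ml for 4 h before fixation with 1% formaldehyde. mESC NPM (2 libraries) and mOPC NPM (2 libraries), for non-protein-mediated, were fixed with 1% formaldehyde and had their crosslinks reversed and their proteins digested before the RNA was ligated. All libraries of a cell type are thus from 1 line, and nothing was measured in primary tissue.

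RNA-binding proteins of this kind bind short motifs in nascent transcripts and set which exons are kept, how stable the mRNA is and how well it is translated. Several families act in pairs of related genes whose balance differs between cell types: PTBP1 is the widely expressed polypyrimidine tract binding protein and PTBP2 its neural paralog, and CELF1 and CELF2 form a comparable pair. QKI, the product of Qk, is known as the regulator of myelin gene transcripts whose loss causes the quaking mouse phenotype, whereas LIN28A is a pluripotency factor that blocks maturation of let-7 microRNAs.

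The files list only interactions of pairs, each a transcript and a 25-kb bin of DNA, that passed the authors' significance threshold on the pooled replicates of a group. The libraries held 251802 to 2832717 listed interactions, and these numbers are no measure of how deeply a library was sequenced. A transcript listed at 0 in a library can have been captured there in pairs that did not pass. The 10 embryonic stem cell markers summed to 2281 to 2824 CPM in mESC 1FA and to 1.81 to 3.00 in mOPC 1FA, and the 10 oligodendrocyte progenitor markers to 30.0 to 61.8 in mESC 1FA and 12255 to 13605 in mOPC 1FA, where Nkx2-2 was listed at 0. Of all interactions, 3.73% to 6.99% lay within 1 kb in the 1FA libraries, against 13.6% to 14.7% after actinomycin D and 84.4% to 87.9% in NPM. Fewer cells carrying a transcript, less RNA per cell and less contact of that RNA with chromatin cannot be told apart in these data.

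In mESC 1FA the 10 genes together took 1.01% to 1.13% of the interactions of a library, and in mOPC 1FA 0.472% to 0.519%. Capture is given as counts of interactions scaled to a library total of 1000000 listed interactions (CPM). To compare genes, it was divided by the length of the gene in kb. On that scale of CPM per kb, the order in mESC 1FA ran from Rbpms with 18.6 ± 1.38 (SD, n = 3) and Msi2 with 13.5 ± 1.06 through Ptbp1 with 7.90 ± 0.676, Qk with 6.93 ± 0.534, Rbfox2 with 5.53 ± 0.191, Celf1 with 5.46 ± 0.383 and Hnrnpk with 4.74 ± 0.365 to Lin28a with 2.53 ± 0.139, Ptbp2 with 0.531 ± 0.0588 and Celf2 with 0.0915 ± 0.00721. The difference between Rbfox2 and Celf1 was smaller than their SD. In mOPC 1FA Qk led with 13.8 ± 0.877, followed by Hnrnpk with 4.26 ± 0.659, Ptbp1 with 3.65 ± 0.272, Rbfox2 with 3.65 ± 0.137, Msi2 with 3.48 ± 0.207, Celf1 with 2.91 ± 0.164, Ptbp2 with 2.03 ± 0.226 and Celf2 with 0.774 ± 0.0950. Celf2 was divided by its whole 970 kb, although only 3.24% of its mOPC 1FA tags lay upstream of base 6872035 of chromosome 2. Its place by the length of the tagged part was not computed. Hnrnpk, Ptbp1, Rbfox2 and Msi2 did not differ beyond their spread there, and Rbpms and Lin28a were listed at 0 in all 5 mOPC libraries.

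**Figure D1:**
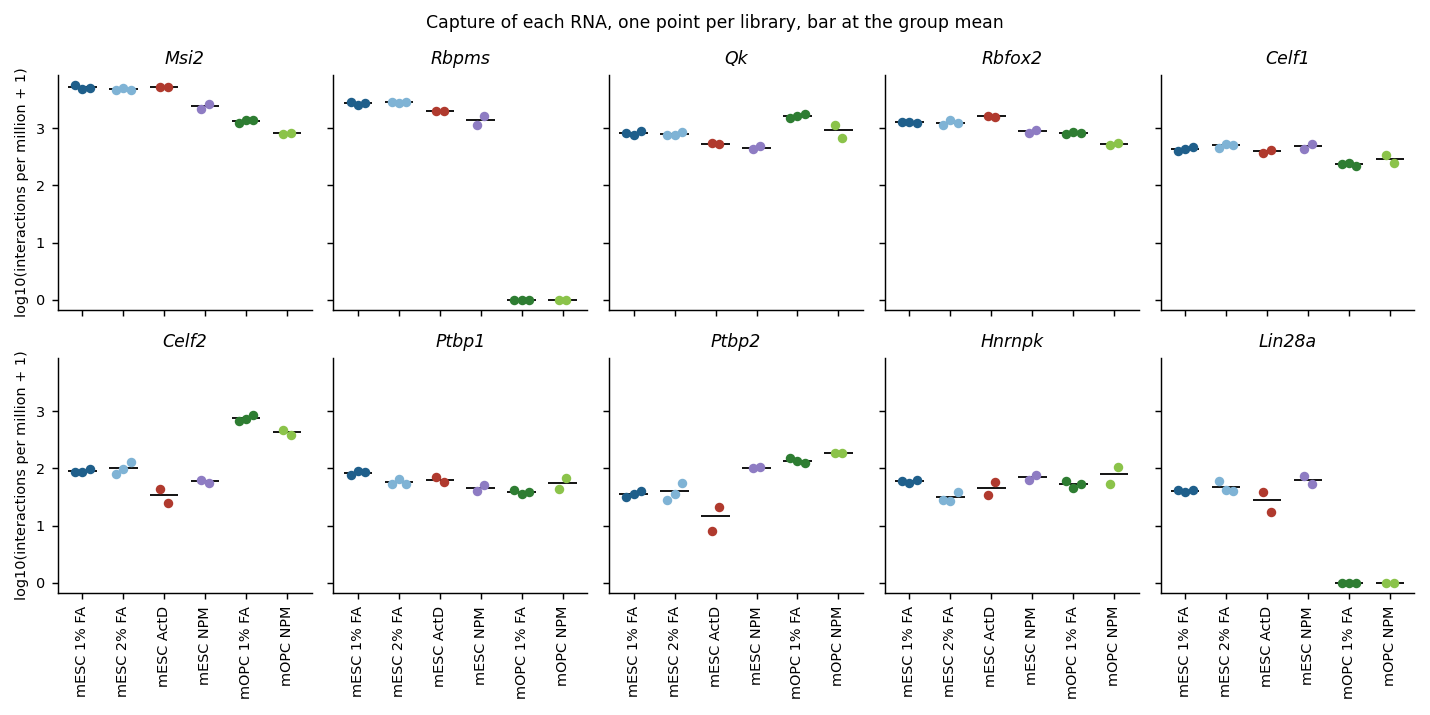
Each panel is 1 gene and each point 1 library, with log10 of CPM plus 1 on the vertical axis and the 6 groups along the horizontal axis; the bar marks the group mean. Rbpms and Lin28a lie at 0 in the 5 mOPC libraries, whereas Celf2 and Ptbp2 lie higher in mOPC 1FA than in mESC 1FA.

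Most RNA tags lay in introns, and many of them shared the exact base at which they were centred. The genes lie at chr11:88339382-88718513 (Msi2), chr8:33782643-33929863 (Rbpms), chr17:10202601-10319854 (Qk), chr15:77078990-77307004 (Rbfox2), chr2:6539694-7509563 (Celf2), chr3:119718742-119784466 (Ptbp2), chr13:58391142-58403343 (Hnrnpk) and chr4:134003330-134018841 (Lin28a) on the minus strand, and at chr2:90940382-91019497 (Celf1) and chr10:79854427-79864771 (Ptbp1) on the plus strand of mm10. Of the 49043 tags of Msi2 in the 6 libraries of mESC and mOPC 1FA, 56.8% had their centre on a base that at least 1 other tag also had, and the share was 60.0% for Rbpms, 61.0% for Qk, 46.1% for Rbfox2, 20.4% for Celf2 and 24.3% for Ptbp2. The following sequences show this for the most tagged 100-base intronic window of 4 genes whose capture differed between the lines. They are given in the sense of the transcript, read from mm10 (GRCm38.p6), and the capitals mark the 21 bases centred on the base with the most tags.
Msi2, chr11:88710401-88710500, minus strand: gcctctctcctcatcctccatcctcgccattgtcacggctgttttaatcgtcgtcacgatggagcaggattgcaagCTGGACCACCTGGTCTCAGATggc
Rbpms, chr8:33829001-33829100, minus strand: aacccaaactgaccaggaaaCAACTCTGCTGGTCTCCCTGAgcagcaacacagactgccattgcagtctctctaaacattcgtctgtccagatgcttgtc
Celf2, chr2:6863501-6863600, minus strand: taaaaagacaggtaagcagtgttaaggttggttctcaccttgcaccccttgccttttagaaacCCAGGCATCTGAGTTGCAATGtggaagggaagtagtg
Ptbp1, chr10:79858401-79858500, plus strand: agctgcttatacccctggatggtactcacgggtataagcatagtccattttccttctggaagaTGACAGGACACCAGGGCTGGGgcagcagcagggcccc

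Nearly every tag in these windows had a DNA position of its own. In the Msi2 window 197 of 204 tags were centred in the capitals, and these 197 tags had 197 different DNA positions in 112 bins. In the Rbpms window 186 of 188 tags were centred in the capitals, with 186 DNA positions in 134 bins, and 127 of them sat on 1 base. In the Celf2 window it was 80 of 83 tags with 80 DNA positions in 58 bins, and in the Ptbp1 window 42 of 47 tags with 41 DNA positions in 15 bins. The windows were used in both lines where the gene was listed: the Msi2 window held 52, 65 and 71 tags in the mESC 1FA libraries and 2, 8 and 6 in mOPC 1FA, and the Celf2 window 3, 2 and 2 in mESC 1FA and 17, 35 and 24 in mOPC 1FA. The Ptbp1 window held 3.55% of the gene's tags in mESC 1FA and 10.0% in mOPC 1FA, in 1 of the 103 windows of the gene. Motifs known for these protein families were searched on the transcript strand: TGCATG for RBFOX, ACTAAC for QKI, TGTGTG for CELF and TTCTCT for PTB. They were in 3.68%, 1.22%, 6.81% and 7.49%, in that order, of 18877 windows of these genes, and in none of the most tagged intronic windows of the 10 genes.

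Celf2 is the longest of the 10 genes, at 970 kb, and its RefSeq transcripts start at several places. Most tags lay downstream of the start at base 6872035 of chromosome 2, with 15.6% ± 4.68 (SD, n = 3) upstream of it in mESC 1FA and 3.24% ± 0.124 in mOPC 1FA. The 250 bases before that start and those before the most upstream start are given from RefSeq, because they differ in base composition; capitals mark GGGCGG or CCGCCC (the GC box on either strand) and TATAAA or TTTATA (the TATA box on either strand), overlaps included.
Celf2, downstream start, chr2:6872036-6872285, minus strand: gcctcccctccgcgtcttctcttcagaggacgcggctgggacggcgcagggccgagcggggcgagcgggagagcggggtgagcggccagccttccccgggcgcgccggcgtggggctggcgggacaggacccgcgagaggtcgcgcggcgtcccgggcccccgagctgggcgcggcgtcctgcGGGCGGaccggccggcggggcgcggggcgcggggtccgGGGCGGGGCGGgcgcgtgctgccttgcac
Celf2, most upstream start, chr2:7396199-7396448, minus strand: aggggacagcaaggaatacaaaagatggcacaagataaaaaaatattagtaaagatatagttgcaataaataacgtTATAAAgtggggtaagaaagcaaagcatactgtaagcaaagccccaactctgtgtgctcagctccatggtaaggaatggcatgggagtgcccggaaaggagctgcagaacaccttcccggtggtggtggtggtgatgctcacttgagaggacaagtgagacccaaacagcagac

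The downstream sequence was 82.8% G or C with 43 CpG, and the upstream one 45.6% with 3 CpG, against a median of 52.4% and 6 over 32851 promoter sequences of the same length. The GC box was present in 32.7% and the TATA box in 12.4% of those promoters. A match is a description of the letters only.

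The first comparison was between the cell lines, mOPC 1FA and mESC 1FA, and asks which of these transcripts touch chromatin in a manner specific to the line. Relative to the other transcripts, on the scale of trimmed means, 4 genes rose in mOPC, namely Celf2, Ptbp2, Qk and Hnrnpk, and 5 fell, namely Msi2, Celf1, Ptbp1, Rbpms and Lin28a, whereas Rbfox2 did not pass the test. The call of Hnrnpk was at the threshold (adjusted p = 0.04998) and turned to -0.17 with scaling to the total. All 10 were tested among 10007 transcripts, of which 35.1% rose and 42.9% fell, so that the share of members called was near that of all transcripts. The median log2 fold change was -0.25 over the 10 genes and -0.20 over all transcripts tested.

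Celf2, an alternative splicing factor of brain, heart and immune cells, was listed at 83.6, 86.0 and 96.7 CPM in the 3 mESC 1FA libraries and at 681, 715 and 855 in mOPC 1FA. The groups lay far apart, and the log2 fold change was 3.58 (SE 0.11, adjusted p = 1.42e-08). Ptbp2, the neural PTB paralog, was listed at 31.1, 34.8 and 38.8 in mESC 1FA and at 150, 130.5 and 121 in mOPC 1FA. The lowest mOPC library lay above the highest mESC library, with a log2 fold change of 2.44 (SE 0.14, adjusted p = 8.09e-07). Ptbp1, the widely expressed paralog, went the other way, from 73.8, 87.2 and 84.0 to 40.7, 35.1 and 37.5, without overlap, and fell by 0.60 on the log2 scale (SE 0.11, adjusted p = 0.00157).

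Qk was listed at 823, 745 and 869 CPM in mESC 1FA and at 1520, 1611 and 1725 in mOPC 1FA. The log2 fold change was 1.50 (SE 0.11, adjusted p = 4.55e-06). Msi2, which encodes a Musashi protein that binds UAG-containing RNA in stem and progenitor cells, had the most interactions of the 10 in mESC, with 5586, 4862 and 4922 CPM, and fell to 1230, 1374 and 1355 in mOPC. The groups did not overlap, and Msi2 fell by 1.45 on the log2 scale (SE 0.13, adjusted p = 1.80e-05). Celf1, the widely expressed CELF protein, fell from 402, 431 and 463 to 232, 242 and 217, by 0.40 on the log2 scale (SE 0.10, adjusted p = 0.00764).

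Rbpms, which encodes an RRM protein known as a splicing regulator of smooth muscle, was listed at 2906, 2509 and 2788 CPM in mESC 1FA and at 0 in every mOPC library. Lin28a was listed at 40.1, 36.9 and 41.0 in mESC 1FA and likewise at 0 in mOPC. No fold is given against a group listed at 0. Rbpms lies on chromosome 8, where 402 of the 565 transcripts tested were called lower in mOPC (71.2%, median log2 fold change -1.41), a larger share than the 42.9% over all chromosomes. The part of that chromosome-wide difference in the value of Rbpms was not tested.

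Hnrnpk, which encodes an abundant poly(C)-binding hnRNP, was listed at 58.1, 53.2 and 62.1 in mESC 1FA and at 59.7, 43.7 and 52.5 in mOPC 1FA, so the values in CPM overlapped. Its log2 fold change of 0.34 (SE 0.14, adjusted p = 0.04998) is on the scale of trimmed means, on which all transcripts shifted relative to their totals. With scaling to the total alone it turned to -0.17 (adjusted p = 0.312), and it did not pass the test without any 1 of 5 libraries (mESC 1FA replicates 1, 2 and 3 and mOPC 1FA replicates 1 and 3, adjusted p = 0.0566 to 0.174). Rbfox2, whose product binds GCATG next to regulated exons, was listed at 1274, 1294 and 1211 in mESC 1FA and at 801, 863 and 829 in mOPC 1FA. Its values in CPM did not overlap, but the log2 fold change on the scale of trimmed means was -0.09 (SE 0.10, adjusted p = 0.402), and with scaling to the total -0.61 (adjusted p = 0.000144).

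**Figure D2:**
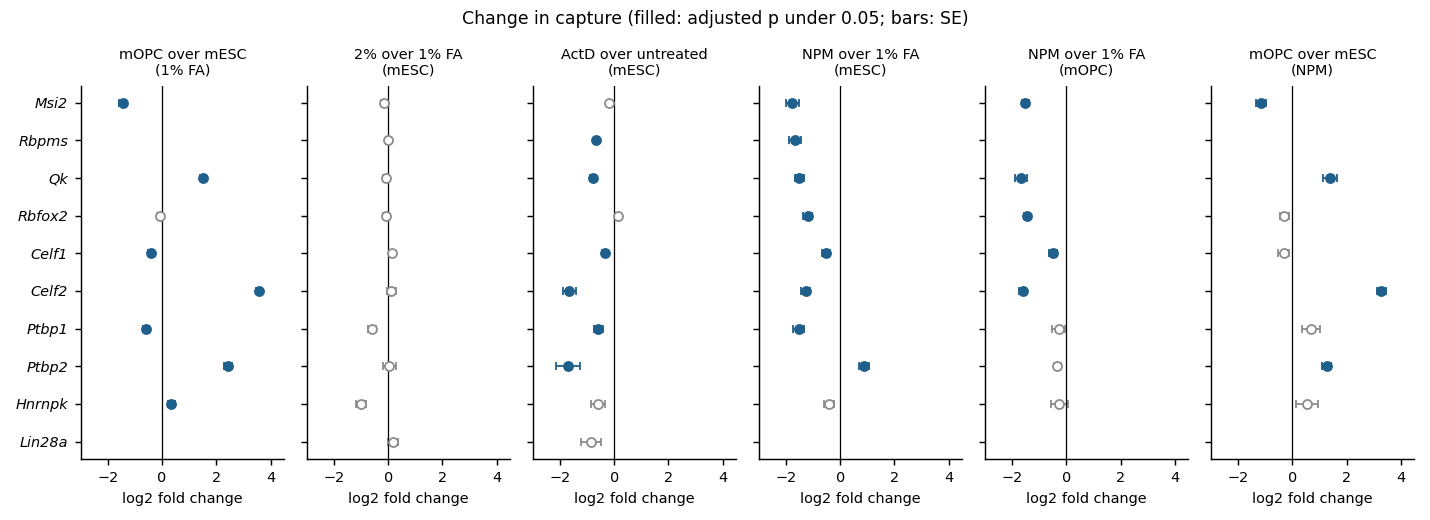
Log2 fold change of capture with its SE (horizontal axis) for each gene (vertical axis) in the 6 comparisons, after scaling by trimmed means; filled points passed an adjusted p of 0.05, and no point is drawn where a group was listed at 0 or for Lin28a in mESC NPM. Celf2 has the largest rise, at 3.58 between the lines in 1FA, and Msi2 and Qk lie below 0 in both NPM comparisons.

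The reach of each RNA was described by the share of its interactions whose DNA tag lay outside its own gene. Distance in cis was described too, and it also counts contacts inside the own gene. By distance, Msi2 and Rbpms reached farthest in mESC 1FA, with a median cis distance of 791 kb ± 60.2 and 829 kb ± 97.6 (SD, n = 3) and 46.2% and 46.7% of interactions in cis beyond 1 Mb. Qk (260 kb), Rbfox2 (208 kb), Celf2 (154 kb) and Celf1 (142 kb) followed, and Ptbp1 (41.8 kb), Ptbp2 (23.9 kb), Hnrnpk (23.5 kb) and Lin28a (23.4 kb) stayed nearest. The farthest cis contact was at 85.6 Mb for Msi2 and at 72.5 Mb for Rbpms, and at 0.321 Mb for Hnrnpk. The short genes with few interactions thus had the shortest median cis distance. By the share outside the own gene the order differed, with Celf2 and Ptbp2 lowest in mESC 1FA and Ptbp1 near Rbpms. A far pair needs enough interactions to be listed, and the part of their number in either order was not tested.

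Between the lines, the share outside the own gene had groups that did not overlap in 4 of the 8 genes listed in both, higher in mOPC for Celf2 and Ptbp2 and lower for Msi2 and Celf1, where 9.06% of 5020 transcripts were higher and 51.4% lower. For Celf2 the share went from 26.9%, 32.9% and 34.3% to 46.3%, 49.3% and 44.6%. For Ptbp2 it was 48.2%, 37.7% and 50.0% and then 59.5%, 63.3% and 56.8%. The far share moved more: 24.99% ± 1.42 of the Celf2 interactions and 22.1% ± 2.06 of the Ptbp2 interactions lay in cis beyond 1 Mb in mOPC, against 0.159% ± 0.275 and 2.89% ± 0.577 in mESC. Beyond 1 Mb 3 of 8 genes were higher in mOPC without overlap and 4 lower, where 18.6% of 5020 transcripts were higher and 22.7% lower.

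Msi2 went the other way, from 73.3%, 71.0% and 73.5% outside the own gene to 51.4%, 53.5% and 53.1%, and from 46.2% ± 0.872 beyond 1 Mb to 15.3% ± 0.978 (27.8% against 15.3% with equal numbers of interactions drawn in both groups). Celf1 went from 76.0%, 80.1% and 71.4% to 62.0%, 71.0% and 67.9%. With 3 libraries against 3, the two-sided exact permutation test cannot give a p under 0.1. The 4 genes moved in reach in the direction in which they moved in capture, and after each gene was drawn down to equal numbers of interactions in both groups only the groups of Msi2 stayed apart (63.0% against 52.7%). The share of Celf2 outside its own gene then reversed, at 31.4% in mESC against 27.7% in mOPC. Beyond 1 Mb the drawn shares were 0.159% against 6.39% for Celf2 and 2.89% against 19.8% for Ptbp2. The pairs drawn from had been listed at the full number of each group, and the authors' pair test was not rerun. Far pairs listed only at the larger number can thus remain in all these draws, and their part was not tested.

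**Figure D3:**
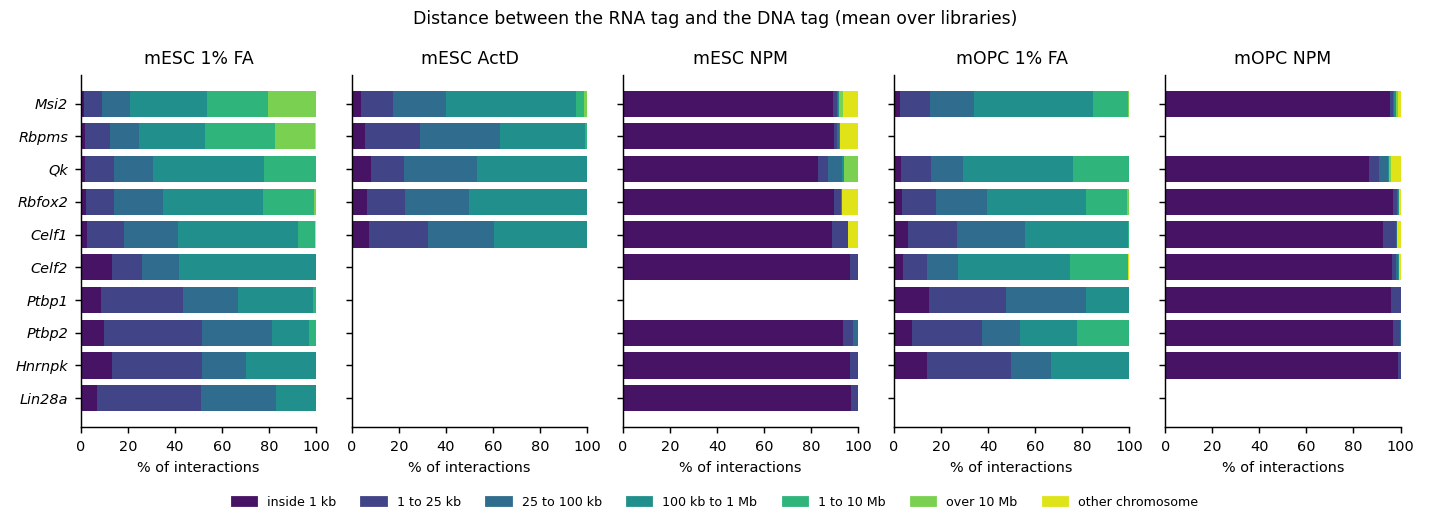
Share of each gene's interactions in 7 classes of distance between the RNA tag and the DNA tag, as the mean over the libraries of 5 groups; a gene is drawn only where each library of the group held at least 20 of its interactions. The class inside 1 kb fills most of each bar in NPM, and the classes above 1 Mb are widest for Msi2 and Rbpms in mESC 1FA.

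Outside their own genes, the RNAs touched neighbours on the same chromosome. Msi2 RNA met Ankfn1, 672 kb away, most often in mESC 1FA (387, 237 and 359 interactions) and Cuedc1, 145 kb away, in mOPC 1FA (86, 78 and 115). Rbpms RNA met Nrg1, 899 kb away, in mESC (511, 365 and 584). These counts were not divided by the length of the contacted gene, which is 1069 kb for Nrg1, 387 kb for Ankfn1 and 96.1 kb for Cuedc1. Gtf2e2, 5.47 kb from Rbpms and 45.3 kb long, had 202, 165 and 208 interactions. The neighbours met most by Celf2 RNA were A230108P19Rik and Usp6nl in both lines. In mESC 1FA A230108P19Rik (20, 19 and 30) came before Usp6nl (11, 18 and 25). In mOPC 1FA Usp6nl (77, 72 and 97) came before A230108P19Rik (40, 65 and 50), as it did in mESC 2FA (59 interactions against 27). Ptbp2 RNA met Dpyd, which is 871 kb long, in both lines (3, 2 and 3, then 28, 36 and 32). Rbfox2 RNA met Mb most often in mESC 1FA and Arhgap39 in mOPC 1FA (187 interactions, against 183 with Mb), Celf1 RNA met 1110051M20Rik in both, Hnrnpk RNA met Kif27 in mESC 1FA and Kif27, 2210016F16Rik and Slc28a3 equally often in mOPC 1FA (17 interactions each), and Lin28a RNA met Dhdds in mESC. Ptbp1 RNA met Plppr3 most often (36, 35 and 41, then 14, 12 and 15), but Plppr3 overlaps Ptbp1 on the opposite strand, and this count can include DNA tags inside Ptbp1 itself. None of the 10 genes was the most contacted gene of another.

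The RNA tags also differed in their place along the gene. The share of exonic tags did not overlap between the lines for 2 of 8 genes, higher in mOPC for Celf1 (13.7% ± 2.62 to 21.3% ± 1.98; 7.41% of 5020 transcripts were higher) and lower for Ptbp2 (20.96% ± 1.67 to 8.91% ± 1.77; 15.7% were lower). The last 10% of the gene held more tags in mOPC for 6 of 8 genes (23.0% of transcripts), with Hnrnpk going from 10.7% ± 3.55 to 29.5% ± 9.22 and Celf1 from 10.5% ± 1.23 to 18.1% ± 1.22, and less for Ptbp2 (17.96% ± 3.58 to 8.38% ± 0.633; 7.99% of transcripts were lower).

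The next comparison, of mESC 2FA with mESC 1FA, asks whether the result changes with the strength of fixation. It shares the mESC 1FA libraries with the actinomycin D and NPM comparisons in mESC, which are therefore not independent of each other. The chromatin was also digested with DNase I for longer in 2FA than in 1FA. Fixation and digestion time thus changed together, and the part of each in any difference below was not tested. Among 9837 transcripts 0.0305% were called in either direction, and none of the 10 genes was. The largest differences were those of Hnrnpk and Ptbp1. Hnrnpk was listed at 58.1, 53.2 and 62.1 CPM in 1FA and at 26.8, 26.0 and 37.4 in 2FA, without overlap, with a log2 fold change of -0.9995 (SE 0.18, adjusted p = 0.0969). Ptbp1 went from 73.8, 87.2 and 84.0 to 52.2, 62.9 and 51.7, with a log2 fold change of -0.60 (SE 0.14, adjusted p = 0.165). Here the replicate numbers were taken to pair libraries, and once that pairing entered the fit both fell (adjusted p = 0.000716 and 0.00618), as 2 of 10 genes called and 481 of all transcripts. The other 8 genes had log2 fold changes between -0.16 and 0.17 without the block.

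The share outside the own gene was lower without overlap in 2FA for 1 of 10 genes, Msi2 (72.6% ± 1.38 to 68.7% ± 1.36), where 26.1% of 7127 transcripts were lower. Taken as pairs of the same replicate number, it was lower in all 3 pairs for 6 of 10 genes, where 48.8% of transcripts were: Msi2, Rbpms, Rbfox2, Celf1, Celf2 and Ptbp2, with mean differences from -2.71 ± 1.58 (Rbpms) to -11.5 ± 13.1 (Ptbp2) percentage points (SD, n = 3 pairs). The exact sign-flip test over 3 pairs cannot give a p under 0.25. For exonic tags it was also 1 of 10, Ptbp2 (20.96% ± 1.67 to 16.6% ± 0.544), where 13.7% of transcripts differed in either direction. In all 3 pairs the exonic share was lower for Qk, Rbfox2 and Ptbp2 (29.2% of transcripts) and higher for Hnrnpk (5.68%), by 14.8, 11.2 and 4.63 points.

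The comparison of mESC ActD with mESC 1FA asks which contacts last when transcription is blocked. Of the 10 genes, 6 fell, namely Celf2, Ptbp2, Qk, Rbpms, Ptbp1 and Celf1, and none rose, where 40.6% of 10235 transcripts fell and 21.5% rose. The median log2 fold change was -0.63 over the 10 genes and -0.29 over all transcripts. The 4 genes that did not pass the test had log2 fold changes of -0.18 (Msi2, adjusted p = 0.141), 0.15 (Rbfox2, adjusted p = 0.123), -0.61 (Hnrnpk, adjusted p = 0.0717) and -0.85 (Lin28a, adjusted p = 0.0709).

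Celf2 was listed at 83.6, 86.0 and 96.7 CPM before and at 43.0 and 23.8 after actinomycin D, from 18 and 6 interactions, and fell by 1.65 on the log2 scale (SE 0.25, adjusted p = 0.00105). Ptbp2 went from 31.1, 34.8 and 38.8 to 7.16 and 19.9, from only 3 and 5 interactions, and fell by 1.70 (SE 0.43, adjusted p = 0.0110). Both treated libraries lay below the 3 untreated ones for both genes. Qk went from 823, 745 and 869 to 549 and 520.3 and fell by 0.79 (SE 0.10, adjusted p = 0.000481), and Rbpms from 2906, 2509 and 2788 to 1982 and 1982 and fell by 0.65 (SE 0.10, adjusted p = 0.000932).

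Msi2, at 5105 and 5210 CPM after treatment, stood among the untreated values, and Rbfox2, at 1631 and 1565, stood above them. The falls of Ptbp1 (by 0.58, SE 0.16, adjusted p = 0.0168) and Celf1 (by 0.34, SE 0.11, adjusted p = 0.0303) were smaller. Without mESC 1FA replicate 2, or without replicate 3, 3 genes were called in place of 6: Ptbp2 (adjusted p = 0.0565 and 0.0639), Ptbp1 (0.0829 and 0.0825) and Celf1 (0.0805 and 0.104) no longer passed. Without mESC ActD replicate 1 Celf1 did not pass (adjusted p = 0.181) and Lin28a did (0.000152), and without replicate 2 Ptbp1 did not (0.0509) and Hnrnpk did (0.00131).

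Reach was compared in the 5 genes with at least 20 interactions in each library. The share outside the own gene was lower after actinomycin D without overlap in all 5, as it was for 95.7% of 2476 transcripts, with 2 libraries against 3, for which the two-sided exact test cannot give a p under 0.2. For Rbpms the share went from 79.2%, 76.3% and 79.3% to 39.5% and 44.5%. For Msi2 it was 73.3%, 71.0% and 73.5% and then 42.3% and 43.3%. Qk (77.6% to 61.4%), Rbfox2 (63.1% to 47.6%) and Celf1 (75.8% to 60.6%) moved less. Beyond 1 Mb the share went from 46.2% to 4.91% for Msi2, from 46.7% to 0.783% for Rbpms and from 22.2% to 0.273% for Rbfox2, and none was listed there for Qk or Celf1. That share was lower without overlap in all 5 genes, where 65.5% of 2476 transcripts were lower. Drawn down to equal numbers, with pairs left at fewer than 5 interactions dropped, the 1FA share beyond 1 Mb was 10.7% for Msi2, 7.94% for Rbpms, 4.86% for Rbfox2, 3.21% for Qk and 0% for Celf1. This cutoff is not the authors' pair test, and the part of the number of interactions in the lower far shares was not tested.

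These libraries are also the smallest, and the list shortens with the number of interactions. With each gene drawn down to equal numbers, the groups of Msi2 (53.8% against 42.8%) and Rbpms (56.1% against 42.0%) stayed apart in the same direction. The share of Qk then turned, at 55.3% in 1FA against 61.4% after treatment, and those of Rbfox2 and Celf1 overlapped.

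**Figure D4:**
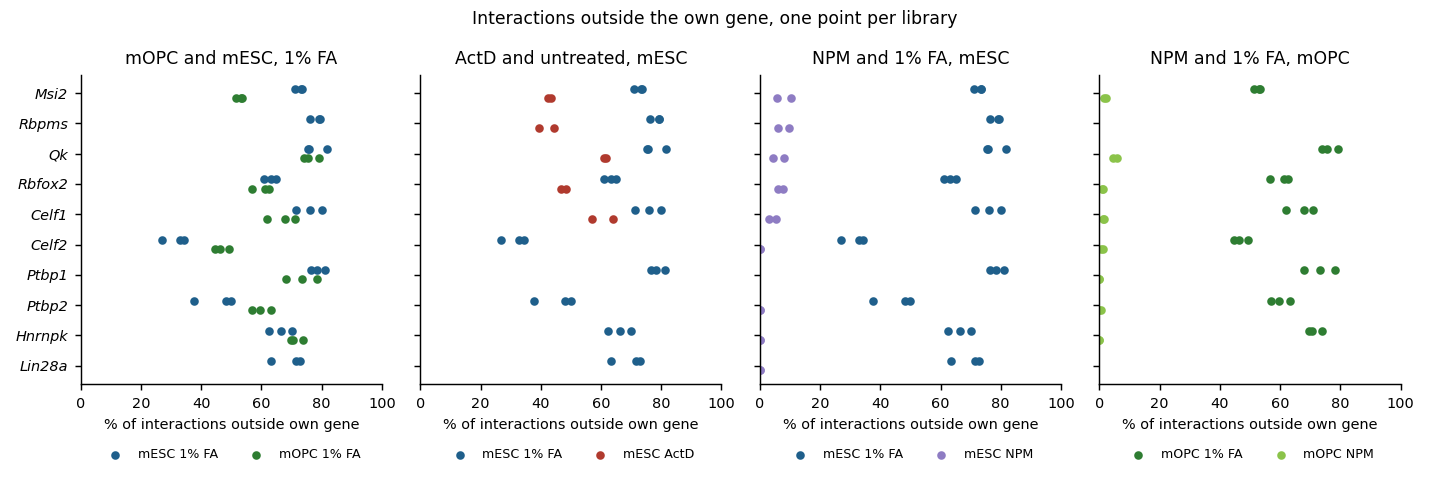
Share of each gene's interactions with a DNA tag outside the own gene (horizontal axis, percent), 1 point per library, for 4 comparisons; a gene is drawn where each library of the group held at least 20 of its interactions. The NPM libraries lie at 10.4% or less, and the ActD libraries of Msi2 and Rbpms lie between 39.5% and 44.5%.

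After actinomycin D the tags of the remaining contacts lay nearer the start of the gene. The share in the first 10% of the gene was higher in 5 of 5 genes, where 78.2% of 2476 transcripts were higher. For Qk it went from 28.9%, 19.9% and 21.2% to 51.7% and 46.6%, and for Celf1 from 17.8%, 15.5% and 17.2% to 33.8% and 39.8%. Rbpms (16.4% ± 2.06 to 27.6% ± 0.982) and Rbfox2 (20.6% ± 2.32 to 29.1% ± 0.810) followed, and Msi2 moved least (20.7% ± 1.30 to 23.0% ± 0.244). The share of exonic tags was higher without overlap in 4 of 5 genes, Qk (17.6% ± 3.27 to 36.96% ± 3.69), Rbfox2 (4.82% to 10.1%), Rbpms (3.58% to 7.06%) and Msi2 (2.84% to 5.02%), where 65.1% of transcripts were higher.

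**Figure D5:**
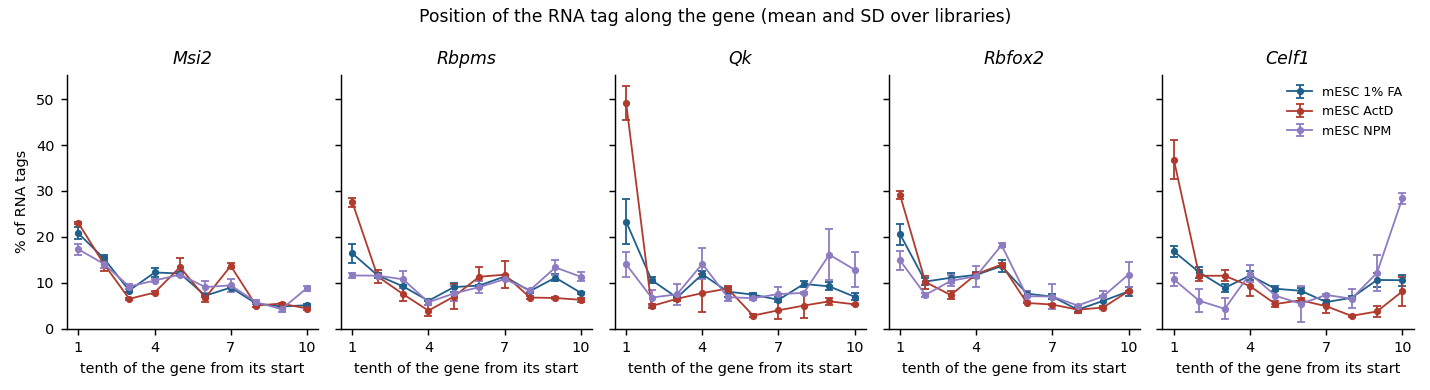
Share of RNA tags in each of 10 equal parts of the gene from its start (horizontal axis, 1 to 10) for 5 genes in 3 mESC groups, as mean and SD over libraries. After actinomycin D the first 10% of Qk held 49.2% of its tags, against 23.3% in 1FA, and in NPM the last 10% of Celf1 held 28.4%, against 10.5%.

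The comparison of NPM with 1FA asks which contacts are held by something other than protein. In mESC 1 gene rose, Ptbp2, and 7 fell, namely Msi2, Rbpms, Ptbp1, Qk, Celf2, Rbfox2 and Celf1, where 24.8% of 11410 transcripts rose and 28.4% fell. Lin28a did not pass (log2 fold change -0.03, SE 0.20, adjusted p = 0.912), with a mean of 39.3 CPM in mESC 1FA and 61.9 in mESC NPM. The median log2 fold change was -1.24 over the 10 genes and 0.03 over all transcripts tested. In mOPC 5 of 8 genes fell, namely Qk, Celf2, Msi2, Rbfox2 and Celf1, and none rose, where 23.8% of 11586 transcripts fell and 32.3% rose, with medians of -0.96 and 0.34. These calls are on the scale of trimmed means. With scaling to the total Celf1 turned to 0.14 in mESC and 0.33 in mOPC, and Ptbp2 rose by 0.48 in mOPC (adjusted p = 0.0112).

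Msi2 was listed at 5586, 4862 and 4922 CPM in mESC 1FA and at 2154 and 2645 in mESC NPM, and in mOPC at 1230, 1374 and 1355 and then 783 and 822. Its groups did not overlap in either line, and it fell by 1.77 (SE 0.24, adjusted p = 0.000215) and by 1.51 (SE 0.13, adjusted p = 0.000148) on the log2 scale. Qk went from 823, 745 and 869 to 433 and 476 in mESC, and from 1520, 1611 and 1725 to 1151 and 675 in mOPC. It fell by 1.51 (SE 0.16, adjusted p = 6.84e-05) and by 1.67 (SE 0.21, adjusted p = 0.000913). The NPM libraries lay below the 1FA libraries of their line for Qk too.

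Rbfox2 went from 1274, 1294 and 1211 CPM to 821 and 919.5 in mESC and from 801, 863 and 829 to 508 and 549 in mOPC, and fell by 1.20 (SE 0.16, adjusted p = 0.000243) and by 1.45 (SE 0.12, adjusted p = 0.000134). Celf2 went from 83.6, 86.0 and 96.7 to 62.1 and 54.2 in mESC and from 681, 715 and 855 to 471 and 385 in mOPC, and fell by 1.27 (SE 0.17, adjusted p = 0.000190) and by 1.61 (SE 0.13, adjusted p = 9.26e-05). Neither gene had groups that overlapped.

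Rbpms, listed in mESC alone, went from 2906, 2509 and 2788 to 1150.5 and 1591 CPM and fell by 1.68 (SE 0.22, adjusted p = 0.000193). Celf1 was listed at 433 and 524 in mESC NPM and at 332 and 247 in mOPC NPM, in or above the range of its 1FA values in CPM, so that its falls of 0.53 (SE 0.16, adjusted p = 0.0191) and 0.48 (SE 0.14, adjusted p = 0.0294) are relative to the other transcripts. With scaling to the total, on which the median of all transcripts was 0.70 higher in mESC NPM and 1.13 higher in mOPC NPM, they turned to 0.14 and 0.33. The call of Celf1 did not hold in mESC without mESC 1FA replicate 3 (adjusted p = 0.0862) or mESC NPM replicate 1 (0.115), nor in mOPC without mOPC 1FA replicate 1 (0.0829) or 2 (0.0863) or mOPC NPM replicate 2 (0.174). Hnrnpk, which did not pass in either line (log2 fold changes -0.42 and -0.26, adjusted p = 0.0876 and 0.502), passed as lower without mESC NPM replicate 2 (0.0387) and without mOPC NPM replicate 2 (0.0474), but turned to 0.24 without mOPC NPM replicate 1 (adjusted p = 0.369) and, with scaling to the total, to 0.25 in mESC and 0.55 in mOPC.

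The effect of NPM on capture differed between the lines for 2 of 8 genes, Ptbp1 and Ptbp2, where 33.3% of all transcripts were called. Ptbp1 was listed in 1 bin in mESC NPM and 1 in mOPC NPM, against 24 in mESC 1FA and 13 in mOPC 1FA. Ptbp1 was listed at 39.1 and 50.9 in mESC NPM, below its 1FA values of 73.8, 87.2 and 84.0, and fell by 1.53 (SE 0.19, adjusted p = 0.000164), whereas in mOPC it was listed at 40.7, 35.1 and 37.5 in 1FA and 43.2 and 67.2 in NPM (log2 fold change -0.28, SE 0.23, adjusted p = 0.335). Ptbp2 was listed at 98.9 and 105 in mESC NPM against 31.1, 34.8 and 38.8 in 1FA and rose by 0.88 (SE 0.19, adjusted p = 0.00348). In mOPC it was listed at 150, 130.5 and 121 and then 181 and 187 (log2 fold change -0.33, SE 0.13, adjusted p = 0.0757), and it fell by 0.45 without mOPC 1FA replicate 3 (adjusted p = 0.0186), as Ptbp1 fell by 0.66 without mOPC NPM replicate 2 (adjusted p = 0.0445). The direction in mOPC was not stable: with scaling to the total Ptbp2 rose by 0.48 (adjusted p = 0.0112) and Ptbp1 was at 0.53 (adjusted p = 0.0663), and Ptbp1 was at 0.035 without mOPC NPM replicate 1 (adjusted p = 0.851). Tested as a difference between the lines in 1 model of both conditions, in which 33.3% of the 11740 transcripts listed in both lines were called in either direction, the NPM effect was 1.12 higher in mOPC for Ptbp1 (SE 0.32, adjusted p = 0.0223) and 1.34 lower for Ptbp2 (log2 difference -1.34, SE 0.22, adjusted p = 0.00131). The call for Ptbp1 did not hold without mESC NPM replicate 1 (0.85, adjusted p = 0.0859) or without mOPC NPM replicate 2 (0.74, adjusted p = 0.0765). For Msi2, Qk, Rbfox2, Celf1, Celf2 and Hnrnpk the difference lay between -0.46 (Celf2, adjusted p = 0.0743) and 0.12 (Msi2, adjusted p = 0.708) and did not pass.

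The listed reach of these RNAs was far shorter in NPM. Far pairs that did not pass the authors' threshold are not listed, and their part in this difference was not tested. In mESC the share outside the own gene was lower without overlap in 9 of 9 genes, as for 99.8% of 4914 transcripts, and in mOPC in 8 of 8, as for 99.5% of 5833. For Msi2 it was 5.66% and 10.4% in mESC NPM against 73.3%, 71.0% and 73.5% in 1FA, and 1.61% and 2.15% in mOPC NPM against 51.4%, 53.5% and 53.1%. Celf2, Ptbp1, Ptbp2, Hnrnpk and Lin28a had no interaction outside the own gene listed in mESC NPM, nor had Ptbp1 and Hnrnpk in mOPC NPM. The share within 1 kb was higher in turn, as it was without overlap for 4914 of 4914 transcripts in mESC (100%) and 5832 of 5833 in mOPC, for Msi2 from 0.939%, 1.62% and 1.31% to 91.1% and 87.3% in mESC and from 3.09%, 1.83% and 2.62% to 96.0% and 95.1% in mOPC. Over both lines, with libraries exchanged only within a line, the 7 genes with enough interactions in all 4 groups changed by -38.7 (Celf2) to -71.4 (Qk) percentage points outside the own gene and by 82.6 (Qk) to 90.5 (Msi2) points within 1 kb, each with p = 0.02 in the exact two-sided permutation test, the smallest p it can give.

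Among the few contacts listed far away in mESC NPM, 1 bin recurred, chr17:39825001-39850000, where the annotation lists an rRNA gene, CT010467.1, and the noncoding genes Gm26917, Gm42418 and AY036118. The same bin held all 54 interactions of Msi2 on another chromosome in mESC 1FA. Its share over all transcripts was not counted, and whether repeat-rich regions had been masked before deposit could not be settled. This bin took 2.46% and 6.27% of the Msi2 interactions of the mESC NPM libraries against 0.121%, 0.185% and 0.100% in mESC 1FA, 2.40% and 7.53% of those of Rbpms, and 5.60% and 5.00% of those of Rbfox2. In replicate 1 this was less than the rest of what lay outside the own gene for Msi2 (5.66% outside in all) and Rbpms (6.20%), and in replicate 2 it was more (10.4% and 9.70% outside in all). All interactions of Qk beyond 1 Mb in mESC NPM (4.26% and 7.93%) lay there too, at 29.5 Mb from Qk on the same chromosome. No interaction of Ptbp1, Ptbp2, Hnrnpk or Lin28a lay on another chromosome in any library. The share on another chromosome was higher in NPM without overlap in 4 of 9 genes in mESC, where 38.0% of 4914 transcripts were higher. In mOPC it was higher in 4 of 8 genes, where 7.42% of 5833 transcripts were. The same bin held all 10 such interactions of Celf1, all 10 of Rbfox2 and 9 of 17 of Msi2 in mOPC NPM. Qk went in mOPC from 0 such interactions in 1FA to 89 in 10 bins in NPM.

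Along the gene, a smaller share of the tags lay near the start in NPM in most genes. The share in the first 10% of the gene was lower in 8 of 9 genes in mESC (53.8% of transcripts) and in 5 of 8 in mOPC (39.3%), and the share in the last 10% of the gene was higher in 6 of 9 (46.4%) and 5 of 8 (41.8%). In mOPC it was lower in 2 of 8, where 8.43% of transcripts were lower: Hnrnpk went from 28.8%, 20.7% and 39.0% to 14.9% and 5.56%, and Ptbp1 from 4.44%, 2.70% and 5.33% to 1.82% and 0. Celf1 moved from 10.5% ± 1.23 to 28.4% ± 1.18 in the last 10% of the gene in mESC and from 18.1% ± 1.22 to 37.3% ± 5.18 in mOPC, and Lin28a from 7.54% ± 3.69 to 34.9% ± 3.71 in mESC. The share of exonic tags was higher without overlap in 6 of 9 genes in mESC (67.7%) and in 7 of 8 in mOPC (66.8%). Lin28a moved from 28.04%, 27.8% and 31.9% to 64.5% and 75.0%, from 31 and 32 interactions, and Celf1 from 16.8%, 12.4% and 12.1% to 34.6% and 29.2% in mESC and from 21.6%, 19.2% and 23.1% to 45.3% and 37.1% in mOPC.

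Between the lines in NPM, Celf2, Qk and Ptbp2 were higher in mOPC and Msi2, Rbpms and Lin28a lower, 6 of 10 genes called, where 27.4% of 10980 transcripts rose and 22.9% fell. Celf2 was listed at 62.1 and 54.2 CPM in mESC NPM and at 471 and 385 in mOPC NPM, a log2 fold change of 3.28 (SE 0.17, adjusted p = 5.17e-05). The log2 fold changes were 1.38 for Qk (SE 0.26, adjusted p = 0.0104), 1.26 for Ptbp2 (SE 0.16, adjusted p = 0.00220) and -1.16 for Msi2 (SE 0.19, adjusted p = 0.00649), and Rbpms and Lin28a were listed at 0 in mOPC. The calls of Msi2 and Qk did not hold without mESC NPM replicate 2 (adjusted p = 0.0637 and 0.0786) or mOPC NPM replicate 1 (0.370 and 0.0723), that of Msi2 without mOPC NPM replicate 2 (adjusted p = 0.325), and that of Qk without mESC NPM replicate 1 (0.109).

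The share outside the own gene in NPM was lower in mOPC without overlap for Msi2, Rbfox2 and Celf1 (3 of 7 genes, where 40.9% of 4411 transcripts were lower) and higher for Celf2 (1 of 7, 3.97%), with values of at most 10.4% in every library. The differences of Celf1 (-2.87 points) and Celf2 (0.796 points) were those of the bin chr17:39825001-39850000. It took 3.19% and 5.33% of Celf1 interactions in mESC NPM against 1.42% and 1.36% in mOPC NPM. For Rbfox2 it was 5.60% and 5.00% against 0.773% and 0.765%. The exonic share was higher for 4 of 7 genes (20.4%) and lower for Ptbp2, 28.02% ± 0.154 against 20.8% ± 1.98 (1 of 7, 17.8%). With 2 libraries against 2, the exact test cannot give a p under 0.333.

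Other genes of the same kind were counted in a list of 83 RNA-binding and splicing regulators. Between the lines in 1FA, 73 were tested, 19 rose in mOPC and 31 fell, where 35.1% of all transcripts rose and 42.9% fell, with a median log2 fold change of -0.16 against -0.20 over all transcripts. By sub-list, 5 rose and 6 fell of 15 relatives of the 10 genes, 5 and 5 of 20 hnRNP genes, 1 and 7 of 15 SR and SR-related genes, which encode serine- and arginine-rich splicing factors, and 8 and 13 of 23 other regulators. Each gene of this list that is named passed the test in its comparison. Among the relatives of the 10 genes, Rbfox1, a neuronal paralog of Rbfox2, rose by 6.42 (SE 0.19) from 6.22 to 391 CPM, and Khdrbs2, a STAR protein gene related to Qk, by 8.06 (SE 0.44) from 1.10 to 218. Nova1, a neuronal splicing regulator, rose by 4.83, Mbnl1 by 2.40 and Rbm20 by 2.18. Rbpms2, the paralog of Rbpms, was listed at 146 CPM in mESC 1FA and at 0 in mOPC 1FA, as were Igf2bp1 (346), Igf2bp2 (250) and Rbm47 (84.6), and Igf2bp3 fell from 240 to 1.08.

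After actinomycin D 76 of the 83 were tested, 18 rose and 33 fell, where 21.5% of all transcripts rose and 40.6% fell (median -0.38 against -0.29). The relatives had 2 of 15 tested higher and 8 lower, the hnRNP genes 5 of 21 higher and 9 lower, the other regulators 4 of 24 higher and 12 lower, and the SR and SR-related genes 7 of 16 higher and 4 lower, among them Srrm2, from 204 to 657 CPM (log2 fold change 1.51), Tra2a (0.93) and Srsf1 (0.68), with Tra2b lower (-1.22). Rbm38 (0.63) and Hnrnpul2 (0.62) rose too, and Mbnl1 (-2.96), Lin28b (-1.77), Ptbp3 (-1.76) and Matr3 (-1.47) fell.

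In NPM 21 of 77 genes tested were higher and 31 lower in mESC, and 25 of 75 higher and 28 lower in mOPC. Over all transcripts 24.8% rose and 28.4% fell in mESC, and 32.3% rose and 23.8% fell in mOPC. In mESC 3 of 15 relatives were higher and 5 lower, 7 of 21 hnRNP genes higher and 10 lower, 8 of 16 SR and SR-related genes higher and 4 lower, and 3 of 25 other regulators higher and 12 lower. In mOPC these numbers were 5 and 8 of 16, 5 and 9 of 21, 8 and 3 of 16, and 7 and 8 of 22. Srrm2 rose in both (1.54 and 1.26), with Hnrnpul2 (1.45), Srsf11 (1.28), Hnrnpu (1.25) and Srsf1 (1.24) in mESC and Hnrnph1 (1.70), Tia1 (1.42), Hnrnpl (0.95) and Sfpq (0.81) in mOPC. Tra2b (-1.54 and -1.49) and Pcbp3 (-1.37 and -1.41) fell in both, with Hnrnpr (-1.49) and Srsf3 (-1.32) in mESC and Raly (-1.55), Mbnl2 (-1.48) and Hnrnpc (-1.44) in mOPC. Between the lines in NPM, 12 rose and 18 fell of 76 tested, where 27.4% of all transcripts rose and 22.9% fell (4 and 3 of 16 relatives, 1 and 3 of 21 hnRNP genes, 2 and 4 of 16 SR and SR-related genes, 5 and 8 of 23 other regulators), among them Khdrbs2, listed at 0 in mESC NPM, Rbfox1 (6.53), Nova1 (4.04), Rbm20 (2.11) and Tia1 (1.39) of those higher in mOPC and Hnrnpd (-1.06), Hnrnpul1 (-0.93), Srrm1 (-0.85) and Tra2a (-0.68) of those lower. None of 75 tested was called between 2FA and 1FA.

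Over the 15 libraries, the transcripts whose capture was most like that of each gene were found by Pearson's r of log2 CPM among 3370 transcripts, as a description only, since the libraries share lines and groups. They were Spred2 and Eefsec for Msi2 (both 0.99), Lncenc1 and Rras2 for Rbpms (both 1.00), Agpat4 and Rab7 for Rbfox2 (both 0.99), Tcf4 and Ano6 for Qk (both 0.98), Numb and Ahcyl2 for Celf1 (0.97 and 0.96) and Prune2 and E130307A14Rik for Celf2 (1.00 and 0.99). For Ptbp2 they were Kcnq5 and Hivep2 (both 0.97), for Lin28a Platr28 and Nphs1 (both 1.00), for Ptbp1 Rbm33 and Sufu (0.88 and 0.86) and for Hnrnpk Zfp207 and Malat1 (0.76 and 0.74), so that Hnrnpk and Ptbp1 had the lowest r. Rbpms and Lin28a were not listed in any mOPC library, and that contrast between the lines can alone give a high r. The values of r are therefore no ranking of similarity between genes.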

How the data were processed

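RADICL-seq interactions of 15 libraries (32 deposited samples, RNA and DNA tags apart, 1 library also resequenced) were analysed. The submitters' processing notes name CASAVA 1.8, BWA 0.7.15-r1140 and mm10, and the authors tested pairs of transcript and 25-kb bin on pooled replicates. The p-value columns deposited for these pairs served only as a stricter filter in one alternative. The files hold no counts, so exact copies were merged and interactions counted per transcript. Gene positions came from GENCODE M21. A unit of this work, log2 CPM, used trimmed-mean scaling, a prior count of 0.5 and a filter on low values (about 10 interactions, scaled to the library, in as many libraries as the smaller group, and 15 in total), and was tested with limma 3.58.1 (trend, two-sided, Benjamini-Hochberg over all transcripts, called at 0.05). A transcript is thus called relative to the others. On data simulated for each of the 6 comparisons, over 9577 to 11199 transcripts, the fit recovered 99.5% to 100% of changed transcripts, and 0.498% (lines in 1FA) to 9.09% (mESC NPM) of its calls were false. The changed transcripts had large simulated folds and were not sparse, and the simulated replicates were independent. These rates therefore do not cover small folds, sparsely listed transcripts or replicates that share a list of pairs. The difference of the NPM effect was read only where a transcript was listed in both lines. Shares required 20 interactions in each library. A share was called different when groups did not overlap, and exact two-sided permutation tests were used. Because replicates share 1 list of pairs, their spread is understated and p-values are too small to that extent.

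Replicate numbers were taken to pair the libraries of mESC 2FA and 1FA, where the deviations of same-numbered libraries correlated at 0.355, 0.183 and 0.323, and in no other comparison. The 10 genes, the 83 further regulators and the measures were chosen with earlier results of these data known. Named genes were all 10, up to 5 further regulators each way by fold change with a mean of at least 100 interactions and groups that did not overlap, the most contacted gene of each, and the 2 transcripts of most similar capture. Alternatives were scaling by total, a prior count of 2, no filter, pairs counted once, a pair threshold of 0.001, interactions outside the own gene, own genes extended by 25 kb, equal numbers, the replicate block and each library left out. Drawing each gene down to equal numbers, the tag position along the gene and the comparison of shares by same-numbered pairs (2FA) were added after seeing the data. After a random draw, pairs left with fewer than 5 interactions in the pooled group were dropped, and the authors' pair test was not rerun. Some genes that the rule for named genes gives are not reported here.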

Additional observations from a re-analysis of the deposited data

Results flagged for a closer look

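The effect of NPM on capture differed between the cell lines, by the test of the difference itself, for 2 of the 8 genes listed in both lines, where 33.3% of 11740 such transcripts were called in the same test. Of all these transcripts, 2810 were called higher in mOPC and 1100 lower, and the share of the 8 genes called was not above that of all. Rbpms and Lin28a were listed at 0 in all 5 mOPC libraries, so that no effect of NPM can be measured there. For Ptbp2 it was -1.34 on the log2 scale for mOPC minus mESC (SE 0.22, adjusted p = 0.00131), with 98.9 and 105 CPM in mESC NPM above the 1FA libraries of that line. For Ptbp1 it was 1.12 higher in mOPC (SE 0.32, adjusted p = 0.0223), from 17 and 31 interactions in the 2 mESC NPM libraries, all in 1 bin. It did not pass without mESC NPM replicate 1 or without mOPC NPM replicate 2 (0.85 and 0.74, adjusted p = 0.0859 and 0.0765).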

How the results depend on the processing

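Of the counts of genes, 66 of 86 under other settings and 103 of 123 with a library left out stayed within 1.5 times their reported values. Capture between 2FA and 1FA gave 2 genes in place of 0 without the filter, 1 for interactions outside the own gene, 10 for pairs counted once and 2 with the replicate block; the block changed no other count of capture past that limit. Pairs counted once gave 10 in place of 6 after actinomycin D and 8 in place of 5 for mOPC NPM, and interactions outside the own gene gave 2 of 5 in place of 6 of 10 between the lines in NPM; pairs counted once have almost no spread, since replicates share 1 list. With a library left out, the count after actinomycin D was 3 to 6, and that of genes with an NPM effect that differed between the lines 1 to 2. For the share outside the own gene, the lines in 1FA gave 1 gene at equal numbers, 7 for pairs counted once and 2 at a pair threshold of 0.001, in place of 4. In 2FA it was 9 for pairs counted once, 2 at 0.001, 3 with genes extended by 25 kb, 6 with the replicate block (all 3 pairs in 1 direction), and 1 to 5 with a library left out, in place of 1. After actinomycin D it was 2 at equal group totals and 3 at equal numbers (Msi2 and Rbpms lower, Qk higher), in place of 5 lower. In mESC NPM it was 5 of 5 at equal totals, in place of 9 of 9. Over both lines, leaving out a library gave 0 to 7 in place of 7, both outside the own gene and within 1 kb: without any 1 of the 4 NPM libraries the exact test cannot go under 0.05, so no gene could pass. Exonic shares gave 2 to 4 genes between the lines in 1FA and 1 to 3 in 2FA with a library left out, 4 in place of 1 in 2FA with the replicate block, 3 in place of 7 (mOPC NPM) and 2 in place of 5 (lines in NPM) for contacts over 1 kb.

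Single genes that reversed were, with scaling to the total, Msi2 after actinomycin D (0.0047), Celf1 (0.14) and Hnrnpk (0.25) in mESC NPM, Celf1 (0.33), Hnrnpk (0.55), Ptbp1 (0.53) and Ptbp2 (0.48, adjusted p = 0.0112) in mOPC NPM, and Hnrnpk between the lines (-0.17). For interactions outside the own gene they were Celf1 after actinomycin D (0.25), Rbfox2 between the lines in 1FA (0.14), Celf1 between the lines in NPM (0.34) and Ptbp2 in mESC NPM, where it was listed at 0 outside its gene, so that the fitted -5.68 is set by the prior count and is no fold. For pairs counted once they were Celf1 after actinomycin D (0.66) and Celf2 in mESC NPM (0.021), and at 0.001 Msi2 after actinomycin D (0.016) and Ptbp2 in mOPC NPM (0.053). With a library left out, Hnrnpk ranged from -0.83 (without mOPC NPM replicate 2) to 0.24 (without replicate 1) and Ptbp1 likewise from -0.66 to 0.035 in mOPC NPM. At equal numbers Qk after actinomycin D (6.05 points) and Celf2 between the lines (-3.71 points) turned in reach. The cause was not tested. After actinomycin D 5 of the 10 genes had fewer than 20 interactions in a library and could not be compared in reach.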
